A study of Mus musculus with 3 samples.

Results

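NRF2 targets and glutathione peroxidases were followed through the cells of the mouse nasal mucosa as 10 genes of 55357 in the gene list, taken by symbol: Nqo1, Hmox1, Gclm, Gclc, Srxn1, Txnrd1, Gpx2, Gpx3, Gpx6 and Prdx6. All 10 had unique molecular identifiers (UMIs, the count of captured mRNA molecules) in all 3 droplet single-cell libraries. The study asked how the drug lonidamine acts in a papain model of eosinophilic chronic rhinosinusitis in C57BL/6J mice, with equal numbers of males and females planned in each group. The PBS group received PBS in the nose. The papain group received 20 µg papain in the nose and PBS by gavage, and the third group received the same papain with lonidamine at 10 mg/kg by gavage. All mice of a group were pooled into 1 library, so no difference between groups has a replicate check and no p-value is given. Intervals in brackets are 95% and cover counting error only.

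After filtering, the PBS, papain and papain with lonidamine libraries held 9378, 10524 and 11887 cells with a median of 7352.5, 6547 and 5823 UMIs per cell. Nuclear ribosomal RNA took 0.878%, 3.66% and 3.52% of UMIs, and cells with Xist and no Y-linked UMI were 56.8%, 73.2% and 83.1% of the cells that could be sexed. Between 56 and 71 barcodes of a library also occurred in another. The labels of the papain library give its library name as Fibroblast, while its title and treatment give it as the model. That library held 446 fibroblasts in 10524 cells and every other class. Marker genes placed 90.2%, 86.6% and 85.6% of the cells in 29 classes, of which 17 had at least 50 cells in each library and are described here. The mix of classes differed: mature olfactory neurons, gated on Omp, Cnga2 and 4 other genes, numbered 2807, 1292 and 1403, and basal epithelial cells, gated on Krt5, Krt14 and 4 others, 865, 1653 and 1798.

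NRF2, encoded by Nfe2l2, is a transcription factor that is held low by KEAP1, which hands it to a ubiquitin ligase. Electrophiles and oxidants modify KEAP1, and NRF2 then pairs with small MAF proteins on antioxidant response elements of its target genes, while BACH1 occupies many of the same elements as a repressor until haem displaces it. The targets supply glutathione and thioredoxin, remove quinones and break down haem. Glutathione peroxidases and peroxiredoxins use these thiols to reduce hydrogen peroxide and lipid peroxides. The nasal lining meets inhaled oxidants directly, and its olfactory part is also rich in drug-metabolizing enzymes.

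RefSeq promoter windows of build GRCm38.p6, reaching from 250 bases before a gene's start to 50 after it, were at hand for 7 of the 10 genes. They were searched on both strands for TGACNNNGC and TGAGNNNGC, the letters at the core of the antioxidant response element. Of 32851 promoter windows of the same length, 27.8% held at least 1 of these 9-base motifs, 4.68% at least 2 and 0.630% at least 3. Of the 9 windows of these 7 genes, 3 held a match, for Srxn1, Txnrd1 and Gclm. The 250 upstream bases of these are printed because they are the only members with a match in the window. The whole window of Srxn1 (printed bases chr2:152105274-152105523, + strand) held 3 matches. Txnrd1 (chr10:82858956-82859205, + strand, 1 of 3 start sites) and Gclm (chr3:122245307-122245556, + strand) held 1 each. Capitals mark the matches.
Srxn1: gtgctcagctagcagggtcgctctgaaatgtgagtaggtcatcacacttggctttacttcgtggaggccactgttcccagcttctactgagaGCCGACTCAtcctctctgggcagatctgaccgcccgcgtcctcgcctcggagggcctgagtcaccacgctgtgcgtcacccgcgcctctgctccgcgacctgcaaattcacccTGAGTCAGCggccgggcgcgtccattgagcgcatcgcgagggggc
Txnrd1: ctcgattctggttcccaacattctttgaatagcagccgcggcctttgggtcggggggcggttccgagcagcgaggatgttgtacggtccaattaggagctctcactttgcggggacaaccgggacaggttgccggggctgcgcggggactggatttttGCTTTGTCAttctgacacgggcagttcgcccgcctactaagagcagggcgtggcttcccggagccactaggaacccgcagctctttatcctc
Gclm: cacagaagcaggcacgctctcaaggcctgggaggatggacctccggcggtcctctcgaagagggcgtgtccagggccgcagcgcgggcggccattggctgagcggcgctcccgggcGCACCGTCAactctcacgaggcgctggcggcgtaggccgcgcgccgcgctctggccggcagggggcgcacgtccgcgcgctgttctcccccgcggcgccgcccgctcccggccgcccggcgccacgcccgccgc
The third Srxn1 match, GCTAGGTCA, lay downstream of the start. The Srxn1 match nearest upstream of the start also contains TGAGTCA, the letters of an AP-1 site. No match in a window says only that these letters were not in it, and distal elements were not searched.

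Over all cells, the papain library had higher Hmox1, Gpx2 and Gpx3 and lower Gpx6 than the PBS library, and the log2 ratios of the glutathione synthesis genes Gclm and Gclc were -0.01 and 0.04. Levels are in CPM, a gene's UMIs per 1000000 UMIs of the same cells, and a gene was called at a ratio of at least 2-fold. Of the 10 genes 3 were called higher, against 10.2% of all 22862 genes compared, and 1 was called lower, against 5.92%. Hmox1 stood at 56.4 CPM with PBS, 125 with papain and 92.7 with papain and lonidamine. Gpx2 stood at 135, 293 and 271 CPM, and Gpx3 at 9.65, 35.4 and 65.7 CPM. Gpx6 stood at 5174, 1642 and 2400 CPM. Among the genes within 2-fold, Nqo1 stood at 244, 163 and 167 CPM, Txnrd1 at 148, 246 and 223 CPM, and Prdx6 at 1003, 1649 and 1660 CPM. The median log2 ratio of papain over PBS was 0.40 over the 10 genes and -0.02 over all genes. With lonidamine, 0 of the 10 were called in either direction against papain alone, where 2.9% of 22947 genes were called higher and 2.08% lower. The share of cells with a UMI differed 2-fold for 0 of the 10 in both comparisons, where it did for 13.8% and 3.99% of genes.

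The mix of cells moved with these whole-library values. When each class was given the same weight in every library, 0 of the 10 genes stayed past 2-fold in papain against PBS. The log2 ratio of Hmox1 went from 1.15 to 0.85, of Gpx3 from 1.87 to 0.84 and of Gpx2 from 1.12 to 0.37. Txnrd1 went from 0.74 to 0.67, Srxn1 from 0.09 to 0.21 and Prdx6 from 0.72 to -0.08. Gpx6 went from -1.66 to -0.45 and Nqo1 from -0.59 to 0.10. The glutathione synthesis genes went the other way, Gclm from -0.01 to -0.53 and Gclc from 0.04 to -0.31. The genes are therefore described class by class.

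**Figure D1:**
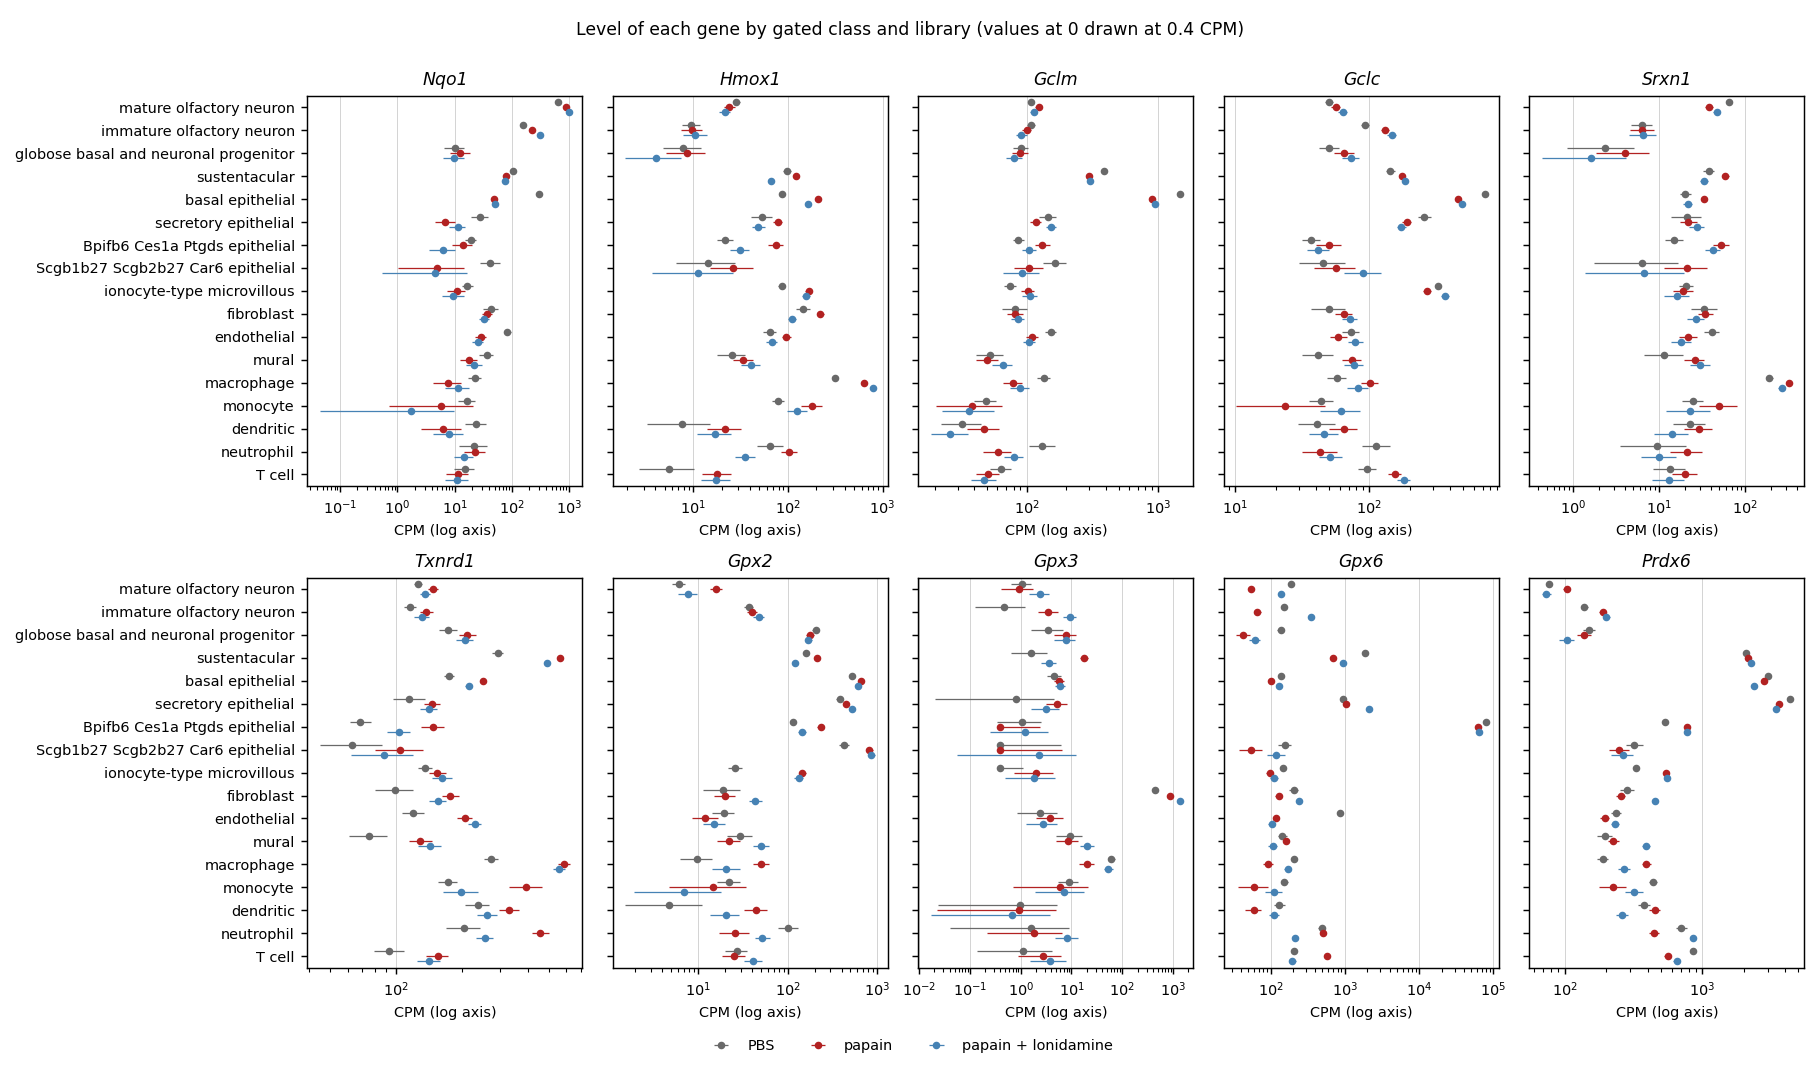
Each panel gives the level of 1 gene in CPM on a log axis for the 17 classes (rows), with PBS in grey, papain in red and papain with lonidamine in blue and bars for 95% Poisson intervals. The leading classes were mature olfactory neurons for Nqo1 at 633 to 1016 CPM, basal epithelial cells for Gclm and Gclc, fibroblasts for Gpx3, and the Bpifb6 Ces1a Ptgds epithelial class for Gpx6 at 61502 to 80116 CPM.

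Nqo1 encodes a quinone reductase that is a classical NRF2 target, and in the olfactory epithelium it is also known to mark neurons of the dorsal zone. Its highest level was in mature olfactory neurons in all 3 libraries, at 633, 892 and 1016 CPM, and these cells held 68.4%, 65.1% and 66.5% of all Nqo1 UMIs. The level in immature neurons was next among neural classes, at 156, 227 and 309 CPM. A Nqo1 UMI was found in 66.3%, 69.3% and 76.6% of mature neurons, against 3.12%, 2.83% and 3.43% of T cells. The median depths were 7479, 7016 and 6557 UMIs in the neurons and 2994, 2950 and 2622 in the T cells. With each cell thinned to 2000 UMIs the shares in neurons were 51.1%, 59.7% and 66.0%.

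Among neurons with UMIs of only 1 of 2 zone genes, Nqo1 differed sharply. Acsm4 marks the dorsal zone and Ncam2 the other zones. Among mature neurons with Acsm4 and no Ncam2 UMI (1982, 884 and 1025 cells), 80.2% [78.4 to 82.0], 87.4% [85.1 to 89.6] and 87.7% [85.5 to 89.7] carried Nqo1. Among those with Ncam2 and no Acsm4 UMI (222, 152 and 90 cells), the shares were 9.01% [5.59 to 13.6], 7.24% [3.67 to 12.6] and 8.89% [3.92 to 16.8]. The intervals of the 2 kinds of neuron were far apart within each library. Neurons with UMIs of both genes (95, 59 and 68 cells) lay between, at 47.4%, 64.4% and 66.2%. So did those with neither (508, 197 and 220 cells), at 40.4%, 37.1% and 55.9%. After thinning, the shares were 58.9%, 75.7% and 74.6% in the neurons with Acsm4 alone and 7.83%, 3.95% and 10.0% in those with Ncam2 alone. Neurons with neither gene were then 47.9%, 43.7% and 42.7% of the class. The papain over PBS ratio in mature neurons was 0.50 on the log2 scale, 0.12 in female and 1.27 in male cells. The genes whose level was most like that of Nqo1 over 51 sums (17 classes in 3 libraries) were Lingo1, Pcolce2 and Nxph3, with Pearson correlations of 0.89, 0.88 and 0.87 among 15246 genes. These sums share libraries and depth, so the correlations are a description.

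Outside the neurons, basal epithelial cells were the main Nqo1 cells of the PBS mucosa, and there the level was much lower after papain. Basal cells, which renew the lining, had 296 CPM with PBS, 49.1 with papain and 50.1 with papain and lonidamine, from 2640, 735 and 718 UMIs. Papain and PBS differed by -2.59 on the log2 scale [-2.71 to -2.47], and lonidamine and papain by 0.03 [-0.12 to 0.18]. Cells with a Nqo1 UMI were 76.0%, 27.3% and 26.7%, and 41.7%, 7.99% and 9.43% after thinning. Cells with 5 or more were 24.4%, 0.907% and 0.556%. In basal cells 1 of the 10 genes was called lower, Nqo1, where 8.48% of all genes were, and 1 higher, Hmox1, where 7.62% were.

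The basal gate held different kinds of cell in the 3 libraries. Cells with at least 2 of Nrcam, Abca4 and Igfbp2 were 58.7%, 23.9% and 19.3% of it, and cells with none of them 26.0%, 62.1% and 64.1%, a split chosen after the data were seen. Nqo1 differed by -2.15 in the first kind (385 to 86.8 CPM) and by -2.17 in the second (188 to 41.7 CPM). It differed by -2.49 in female and -2.77 in male basal cells. The lower Nqo1 level thus held in both kinds of basal cell and both sexes. Nqo1 was called lower in 8 of the 17 classes and higher in 0, where 5.67% and 7.77% of all gene and class pairs were. Endothelial cells stood at 84.0, 28.6 and 25.3 CPM, while sustentacular cells, which support the olfactory neurons, stood at 107, 79.3 and 74.97 CPM. In several of the 8 classes the level was low: macrophages had 58, 14 and 18 Nqo1 UMIs, and dendritic cells 25, 7 and 12. The summed level of the 6 mature neuron markers, whose cells held most Nqo1 UMIs, was 491, 205 and 112 CPM inside the macrophage gate and 174, 75.8 and 80.7 CPM inside the basal gate, with 0 at 0 in each library. The part of neuronal RNA in these Nqo1 values was not tested.

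**Figure D2:**
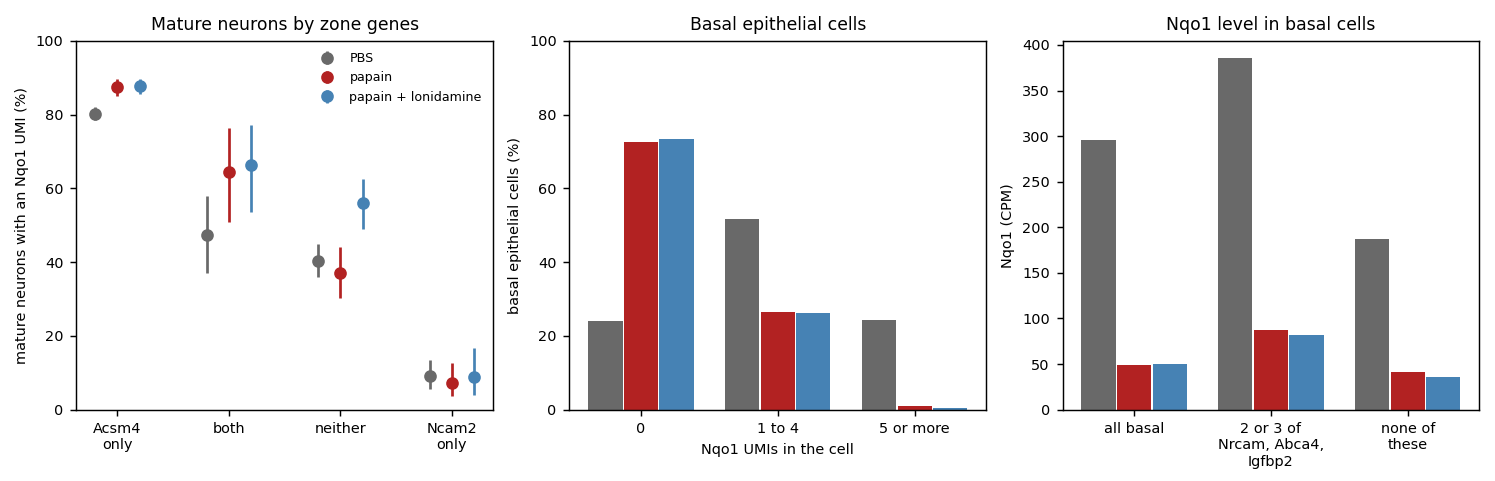
Left, percent of mature neurons with a Nqo1 UMI by their Acsm4 and Ncam2 UMIs, with 95% Clopper-Pearson bars; middle, percent of basal epithelial cells by their number of Nqo1 UMIs; right, Nqo1 CPM in all basal cells and in 2 kinds of them (PBS grey, papain red, papain with lonidamine blue). Nqo1 marked 80.2% to 87.7% of Acsm4 neurons and 7.24% to 9.01% of Ncam2 neurons, and basal cells with no Nqo1 UMI went from 24.0% with PBS to 72.7% with papain.

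Gclc and Gclm encode the catalytic and modifier subunits of glutamate-cysteine ligase, the rate-limiting enzyme of glutathione synthesis. Both were highest in basal epithelial cells, which held 57.4%, 57.3% and 55.5% of all Gclm UMIs and 43.2%, 43.0% and 41.4% of all Gclc UMIs. Gclm stood there at 1464, 893 and 949 CPM and Gclc at 729, 461 and 489 CPM. The log2 ratios of papain over PBS were -0.71 and -0.66, short of 2-fold. For Gclm the difference was smaller within each kind of basal cell: -0.22 in cells with 2 or 3 of Nrcam, Abca4 and Igfbp2 and 0.04 in cells with none. The first kind carried 2098 CPM of Gclm with PBS and the second 625 CPM. The part of the shares of the 2 kinds in the lower level over the gate was not tested. For Gclc the ratios within them were -0.67 and -0.90, as large as over the gate.

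The subunits parted in other cells. Ionocyte-type microvillous cells, gated on Foxi1, Ascl3, Cftr and 3 other genes, had the next highest Gclc, at 324, 270 and 365 CPM, with Gclm at 74.9, 102 and 106 CPM. Sustentacular cells had the next highest Gclm, at 386, 300 and 303 CPM, with Gclc at 144, 175 and 185 CPM. T cells had 96.3, 155 and 180 CPM of Gclc. Gclm and Gclc were both called lower in neutrophils with papain, at 132 with PBS and 60.3 CPM with papain and at 113 and 42.9 CPM, where 5.32% of all genes were. In neutrophils 3 of 9 genes were lower (Gpx2 too) and 2 higher, where 7.48% were. In the PBS library 36.1% of the Gclm UMIs and 36.6% of the Gclc UMIs of neutrophils lay in a single cell. Without the top cell of each library the ratios were -0.58 and -0.93, short of 2-fold.

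Hmox1, Srxn1 and Txnrd1 encode heme oxygenase 1, sulfiredoxin, which repairs over-oxidized peroxiredoxins, and the cytosolic thioredoxin reductase. In macrophages, gated on C1qa, Csf1r, Mrc1 and 3 other genes, all 3 were higher with papain, Hmox1 and Txnrd1 past 2-fold. Hmox1 stood at 312 CPM with PBS [291 to 335], 640.5 with papain [604 to 678] and 795 with papain and lonidamine [752 to 840]. Txnrd1 stood at 271, 589 and 557 CPM. Srxn1 stood at 192.5, 324 and 269 CPM, the highest of any class in each library. The log2 ratios of papain over PBS were 1.04 [0.91 to 1.17], 1.12 [0.98 to 1.26] and 0.75 [0.58 to 0.93]. In female macrophages alone the Hmox1 ratio was 0.81, short of 2-fold, and in male ones 0.99. Of the other enzymes and transporters under NRF2 control, Gsta4 (1.71) and Ephx1 (1.70, from 15 and 35 UMIs) were called higher in macrophages with papain. None of that list was called lower, where 8.13% of all genes were higher and 9.86% lower. Within 2-fold the papain over PBS ratios went both ways, down to -0.94 for Fth1. Ftl1 stood at -0.91, Prdx1 at -0.83 and Txn1 at -0.78, while Abcc1 stood at 0.80 and Slc7a11 at 0.52.

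Macrophages were also the class with the most calls. Of the 10 genes 4 were called higher (Hmox1, Txnrd1, Gpx2, Prdx6), against 8.13% of 10225 genes, and 3 lower (Nqo1, Gpx3, Gpx6), against 9.86%. The median log2 ratio was 0.78 over the 10 genes and -0.12 over all genes. Gpx2 rested on 25 and 92 UMIs. Prdx6 stood at 189, 391.9 and 270 CPM, and a single papain cell held 21.7% of its UMIs. Markers of epithelial cells also stood higher inside the macrophage gate with papain. The summed level of 6 secretory markers was 206, 779 and 576 CPM (2, 0 and 2 of them at 0) and of 6 basal markers 70.7, 306 and 189 CPM (0 at 0 in each library). That of 6 sustentacular markers was 129, 216 and 452 CPM (0 at 0 in each library), higher again with lonidamine, where Prdx6 was lower. Gpx2 and Prdx6 are epithelial genes here, and the part of such RNA in their macrophage values was not tested. The summed level of 5 monocyte markers was 226, 623 and 461 CPM, with 0 at 0. Neuron markers, at 491, 205 and 112 CPM, moved the other way. The part of RNA from other classes in the lower macrophage Nqo1 and Gpx6 values with papain was not tested.

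Hmox1 was higher with papain in other cells too. It was called higher in 6 of the 17 classes and lower in 0, where 7.77% and 5.67% of all gene and class pairs were. In basal epithelial cells it stood at 86.0, 210 and 163 CPM from 767, 3143 and 2334 UMIs, a papain over PBS ratio of 1.29 [1.17 to 1.40]. It was 1.42 and 1.23 in the 2 kinds of basal cell and 1.17 and 1.38 in female and male cells. The summed level of the 6 secretory markers inside the basal gate was 844, 3733 and 2253 CPM, with 1 at 0 in each library, and its part in the Hmox1 values was not tested. Basal cells held 17.0% of all Hmox1 UMIs with PBS and 30.2% with papain, more than macrophages did with papain (11.2%). Fibroblasts stood at 144, 220 and 111 CPM. Their ratio of lonidamine over papain was -0.99. Neutrophils had 65.2, 103 and 35.6 CPM, and lonidamine over papain was called lower at -1.53, where 6.86% of genes were and 8.03% were higher. In macrophages the same comparison went the other way, at 0.31 [0.20 to 0.43], within 2-fold.

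Txnrd1 had a broad distribution with sustentacular cells at the top beside macrophages. Sustentacular cells stood at 292, 562 and 491 CPM, a papain over PBS ratio of 0.94, which was 1.34 in female and 0.61 in male cells. Txnrd1 was called higher in 4 classes, among them neutrophils (204, 458 and 255 CPM) and monocytes (172, 393 and 198 CPM), where 7.77% of all gene and class pairs were. With lonidamine both stood closer to PBS than to papain, and the ratios over papain were within 2-fold. Srxn1 in mature neurons went the other way, at 64.7, 38.5 and 47.0 CPM, a papain over PBS ratio of -0.75, and of -0.59 and -0.82 in female and male neurons. Mature neurons held 44.5% of all Srxn1 UMIs with PBS and 11.2% with papain, and were 29.9% and 12.3% of the cells.

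**Figure D3:**
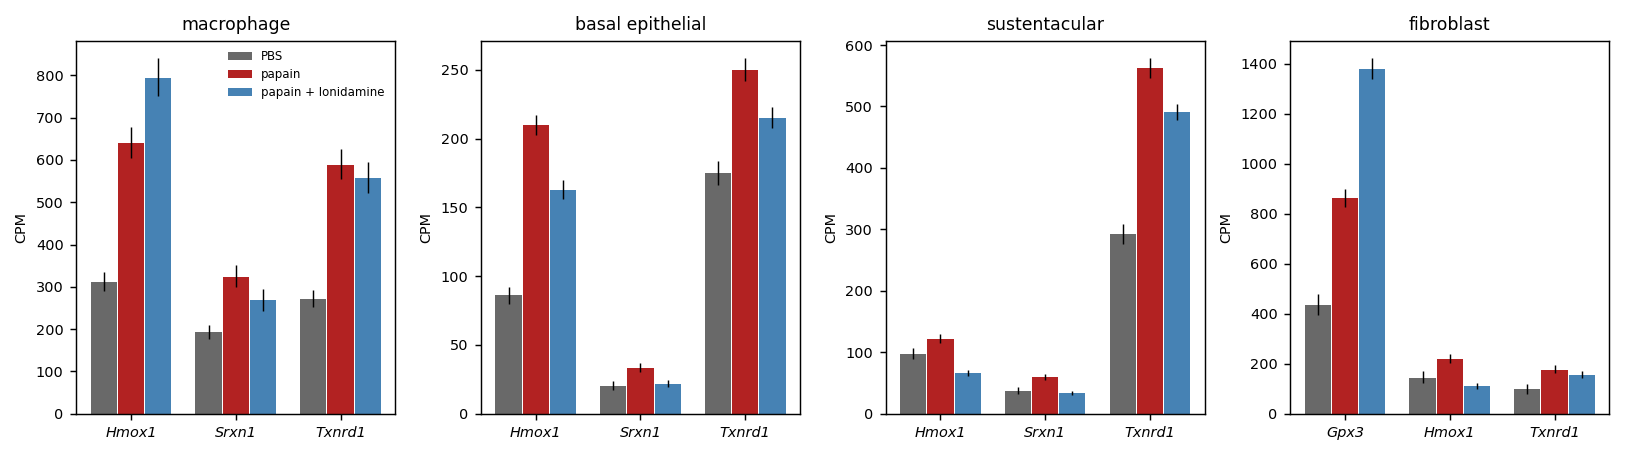
Bars give CPM in 4 classes for the named genes in the PBS (grey), papain (red) and papain with lonidamine (blue) libraries, with 95% Poisson intervals for counting error. Macrophage Hmox1 stood at 312, 640.5 and 795 CPM, basal Hmox1 at 86.0, 210 and 163 CPM, and fibroblast Gpx3 at 436, 862 and 1378 CPM.

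Gpx2 encodes the epithelial glutathione peroxidase, known from the gut and airway lining. Its highest levels were in surface and gland epithelium: basal cells at 521, 658 and 615 CPM, secretory cells at 380, 443 and 519 CPM, and the Scgb1b27 Scgb2b27 Car6 class at 426, 818 and 864 CPM. Basal cells held 43.2%, 40.5% and 38.2% of its UMIs. Over the basal gate papain was 0.34 above PBS on the log2 scale, while within the 2 kinds of basal cell the ratios were -0.22 and -0.20. Cells with none of Nrcam, Abca4 and Igfbp2, whose share was higher with papain, had 910 CPM with PBS against 268 in the other kind. In the ionocyte-type cells Gpx2 stood at 26.1, 146 and 133 CPM, a ratio of 2.48 [2.20 to 2.78], with 9.78%, 23.4% and 21.9% of cells carrying a UMI. Over 12 other settings that ratio ran from 1.98 in female cells to 3.72 in male cells. Gpx2 was the 1 gene of the 9 with enough UMIs called higher in these cells, where 6.83% of all genes were, and 0 were lower, where 4.47% were. With lonidamine 0 were called there in either direction, where 1.23% and 1.44% were. The higher Gpx2 was not particular to these cells. With papain it was called higher in 5 classes and lower in 1, where 7.77% and 5.67% of all gene and class pairs were. Ratios were 3.10 in dendritic cells, 2.36 in macrophages and 1.39 in mature neurons. The part of RNA from other epithelial cells in the ionocyte-type values was not tested.

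Prdx6 encodes a peroxiredoxin that uses glutathione and also has phospholipase activity. Its level was highest in 3 epithelial classes. Secretory cells stood at 4362, 3604 and 3425 CPM, basal cells at 3027, 2820 and 2386 CPM and sustentacular cells at 2076, 2150 and 2250 CPM. It was called higher in 1 of 17 classes with papain and lower in 0, where 7.77% and 5.67% of all gene and class pairs were, and in 0 with lonidamine, where 3% and 2.35% were. The Alox12e Gp2 Clca1 epithelial class, too rare with PBS (3 cells) for the comparison, had 278 and 210 cells with papain and with papain and lonidamine. Its Prdx6 level was 5487 and 6833 CPM, above that of every class compared.

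Gpx3 encodes the secreted glutathione peroxidase of plasma. It was a fibroblast gene here: fibroblasts held 56.7%, 81.0% and 77.4% of its UMIs, at 436 CPM [396 to 479], 862 [827 to 897] and 1378 [1338 to 1420]. A Gpx3 UMI was found in 17.7%, 34.3% and 45.0% of fibroblasts, and in 13.6%, 29.5% and 39.3% after thinning, against 0.368%, 0.808% and 1.33% of T cells. The log2 ratios were 0.98 [0.83 to 1.13] for papain over PBS and 0.68 [0.61 to 0.75] for lonidamine over papain, both short of 2-fold. Female fibroblasts gave 0.45 and male ones 1.32 for papain over PBS, and 0.73 and 0.79 for lonidamine over papain. The summed level of 4 osteoblast markers inside the fibroblast gate was 1041, 190 and 506 CPM, with 0 at 0. The 18 cells gated as osteoblasts with papain and lonidamine had 3367 CPM of Gpx3, and the part of such cells in the fibroblast values was not tested.

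Macrophages were the other class with clear Gpx3, in the opposite order. They stood at 60.7, 19.8 and 53.4 CPM from 157, 36 and 85 UMIs, with 23.5%, 7.34% and 15.0% of cells carrying a UMI. Papain over PBS was -1.60 [-2.18 to -1.09] and lonidamine over papain 1.42 [0.86 to 2.04], the 1 gene of the 10 called higher in macrophages in that comparison, where 2.35% of genes were. Gpx2 was the 1 called lower, where 2.46% were. The highest Gpx3 cell held 5.10%, 8.33% and 7.06% of these UMIs. Elsewhere Gpx3 was sparse. In sustentacular cells 7, 152 and 37 UMIs were found, and 86.2% of the 152 lay in a single cell.

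Gpx6 encodes a glutathione peroxidase known from olfactory tissue, which in rodents carries cysteine in place of selenocysteine. Most of it lay in a rare epithelial class gated on Bpifb6, Ces1a and Ptgds, of 176, 140 and 158 cells. Gpx6 there took 8.01%, 6.15% and 6.29% of all UMIs, or 80116, 61502 and 62942 CPM, a papain over PBS ratio of -0.38. These cells held 91.6%, 81.2% and 77.8% of the Gpx6 UMIs of their libraries. Requiring all 3 markers gave 81707, 62451 and 63226 CPM. Cells with over 1% of their UMIs in Gpx6 were 2.11% [1.83 to 2.42], 1.79% [1.54 to 2.06] and 1.94% [1.70 to 2.21] of all cells. Of these 198, 188 and 231 cells, 168, 135 and 145 were in the class, 17, 24 and 42 were ungated, 2, 11 and 17 were secretory cells and 11, 18 and 27 were in other classes.

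The lower Gpx6 level of the whole papain library came with shallower Gpx6 cells. Their median depth was 24507.5 UMIs with PBS, 7393.5 with papain and 14125 with papain and lonidamine, and the median Gpx6 UMIs per cell were 1892.5, 204 and 904. The median share of a cell's UMIs in Gpx6 was 8.37%, 5.90% and 6.55%. Less RNA per cell and less RNA captured per cell cannot be told apart. The genes most like Gpx6 over the 51 sums were Bpifb4, Cdcp3 and Gkn3, at Pearson correlations of 0.97, 0.95 and 0.92. Gpx5, the neighbouring family member known from the epididymis, was also found there: 61 of 86, 26 of 29 and 218 of 235 UMIs, at 12.9, 14.5 and 86.4 CPM.

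Gpx6 UMIs were also scattered over all other classes. The 16 others had a median of 173, 99.0 and 134 CPM, and between 42.5% and 80.6% of their cells with PBS, 21.6% and 53.4% with papain and 34.2% and 60.6% with lonidamine carried a UMI. Every class had some, including T cells (44.9%, 30.1% and 37.1%), so a share of this size is not read as expression of Gpx6, and whether it is free RNA was not tested. Sustentacular and secretory cells stood above most classes, at 1852, 698 and 943 CPM and at 936, 1039 and 2093 CPM, up to 3.32% of the level in the Gpx6 cells. Single cells weighed heavily: 1 cell held 54.6% of the secretory Gpx6 UMIs with PBS, 85.8% of the endothelial ones with PBS and 72.0% of the T cell ones with papain. Gpx6 was called lower with papain in 9 of the 16, where 5.67% of all gene and class pairs were, and outside sustentacular and endothelial cells none of these had more than the 208 CPM of macrophages with PBS.

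**Figure D4:**
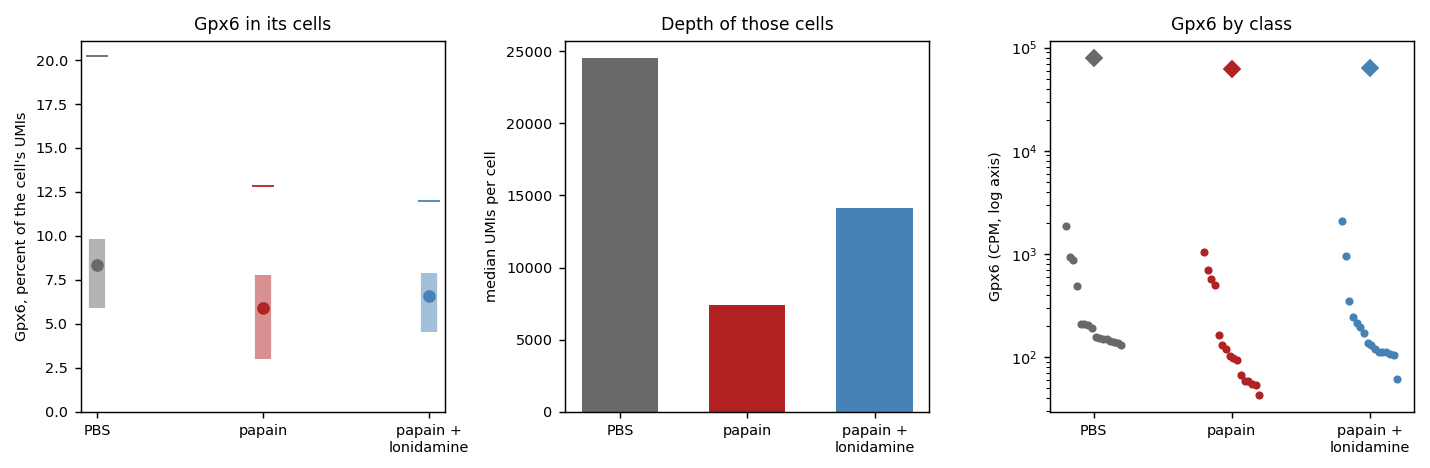
Left, percent of a cell's UMIs in Gpx6 in the Bpifb6 Ces1a Ptgds class (point, median; box, quartiles; dash, highest cell); middle, median UMIs of these cells; right, Gpx6 CPM on a log axis in that class (diamond) and in the 16 others (dots). The median share was 8.37%, 5.90% and 6.55%, while the median depth was 24507.5, 7393.5 and 14125 UMIs.

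In the same Bpifb6 Ces1a Ptgds class 4 of the 9 genes with enough UMIs were called higher with papain, against 6.87% of 10681 genes, and 0 lower, against 4.43%. Hmox1 stood at 22.0, 74.5 and 30.9 CPM, Srxn1 at 15.2, 52.9 and 42.4 CPM, Txnrd1 at 68.5, 147 and 103 CPM and Gpx2 at 115, 234 and 146 CPM. The ratios of papain over PBS were 1.76, 1.79, 1.10 and 1.03. With lonidamine, Hmox1 (-1.27) and Nqo1 (-1.12, from 25 and 16 UMIs) were called lower, where 2.54% of genes were, and 0 higher, where 2.64% were. Counting a marker at 1 UMI in the gate brought Txnrd1 to 0.71, and the lonidamine ratios of Hmox1 and Nqo1 to -0.72 and -0.04. The summed level of the 6 secretory markers in the class was 1117, 2439 and 2201 CPM and that of the 6 basal markers 96.2, 266 and 217 CPM, and their part in these values was not tested.

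The regulators of the pathway showed no single direction. Over all cells 2 of 8 were called higher with papain and 0 lower, where 10.2% and 5.92% of all genes were: the small MAF genes Maff (87.6, 178 and 157 CPM) and Mafk (32.6, 72.2 and 69.3 CPM). Nfe2l2 itself stood at 271, 206 and 201 CPM, a ratio of -0.39, Keap1 at 53.3, 45.0 and 52.7 CPM, and Bach1 at 54.3, 77.7 and 78.0 CPM. In macrophages Bach1, Maff and Mafk were called higher with papain, at ratios of 1.51, 1.39 and 1.09, and Keap1 lower at -1.27, from 87 and 25 UMIs, where 8.13% and 9.86% of all genes were. Nfe2l2 in macrophages was 688 CPM with PBS and 798 with papain. In basal cells Nfe2l2 stood at 459, 265 and 260 CPM, a ratio of -0.79, and 0 of the 8 were called.

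The rest of the pathway was mixed. Of 20 other enzymes and transporters under NRF2 control, 2 were called higher with papain over all cells and 1 lower. The shares to set beside this list and the next ones are 10.2% of all genes called higher and 5.92% lower. Gsta4, a glutathione transferase, stood at 184, 385 and 428 CPM, and Akr1b8, an aldo-keto reductase, at 1.99, 5.33 and 3.64 CPM. Ftl1, the ferritin light chain, stood at 2648, 1301 and 1112 CPM. A further list held 13 genes for other glutathione peroxidases, peroxiredoxins, catalase and superoxide dismutases. Of these, catalase Cat (26.7, 70.8 and 91.8 CPM) and extracellular superoxide dismutase Sod3 (2.29, 7.83 and 9.05 CPM) were called higher, Gpx5 lower. Gpx1 stood at 285, 346 and 371 CPM and Gpx4, which guards membranes against lipid peroxides, at 507, 408 and 380 CPM. All of these are values over all cells, which the mix of classes can move. Within classes, the log2 ratio of papain over PBS for Cat was 0.04 in sustentacular cells, 0.06 in macrophages and 0.06 in fibroblasts. For Gsta4 it was 0.66, 1.71 and -0.75 in the same classes. Of 12 genes of glutathione and thioredoxin handling 1 was called higher, Gsto1, a glutathione transferase of the omega class, at 241, 1850 and 1820 CPM. In basal cells Gsto1 went from 1157 to 3399 CPM. Of 6 genes that supply selenoproteins 0 were called, and of 6 haem genes Hp (49.9, 104 and 98.4 CPM) and Hpx (0.288, 0.651 and 0.424 CPM) were called higher. Of 5 olfactory zone genes Nfia (49.3, 105 and 130 CPM) and Nfix (75.9, 181 and 207 CPM) were called higher. Nfib stood at 166, 271 and 316 CPM, Acsm4 at 300, 218 and 300 CPM and Ncam2 at 14.8, 12.2 and 8.54 CPM. These too are values over all cells, which the mix of classes can move. Nfix was not limited to neurons, with 286, 644 and 875 CPM in fibroblasts. With lonidamine against papain, Gpx5 alone of all these lists was called over all cells, at 2.96. In that comparison 2.9% of all genes were called higher and 2.08% lower.

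Within classes, papain against PBS gave 25 calls higher and 21 lower in 161 pairs of a gene and a class, or 15.5% and 13.04%, where 7.77% and 5.67% of all such pairs were called. Gpx6 gave 9 of the 21 lower calls, all outside the class that held most of its UMIs, and Nqo1 gave 8. The lower calls are therefore not read as a result about the 10 genes together. Hmox1 gave 6 of the higher calls, Gpx2 5, and Gpx3, Srxn1 and Txnrd1 4 each. Lonidamine against papain gave 12 higher and 14 lower in 157 pairs, or 7.64% and 8.92%, against 3% and 2.35%. Without each gene's top cell the 14 lower became 7. With lonidamine Gpx2 was called higher in 3 classes and lower in 3, Gpx3 higher in 4 and lower in 1, and Gpx6 higher in 4 and lower in 2. Hmox1 was called lower in 4, Srxn1 lower in 3, Nqo1 lower in 1 and Gclc higher in 1, and Gclm, Txnrd1 and Prdx6 in 0. None of the 10 genes was called in basal epithelial cells with lonidamine, where 2.22% of genes were higher and 1.27% lower. The papain and lonidamine comparisons share the papain library, so their ratios are not independent.

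**Figure D5:**
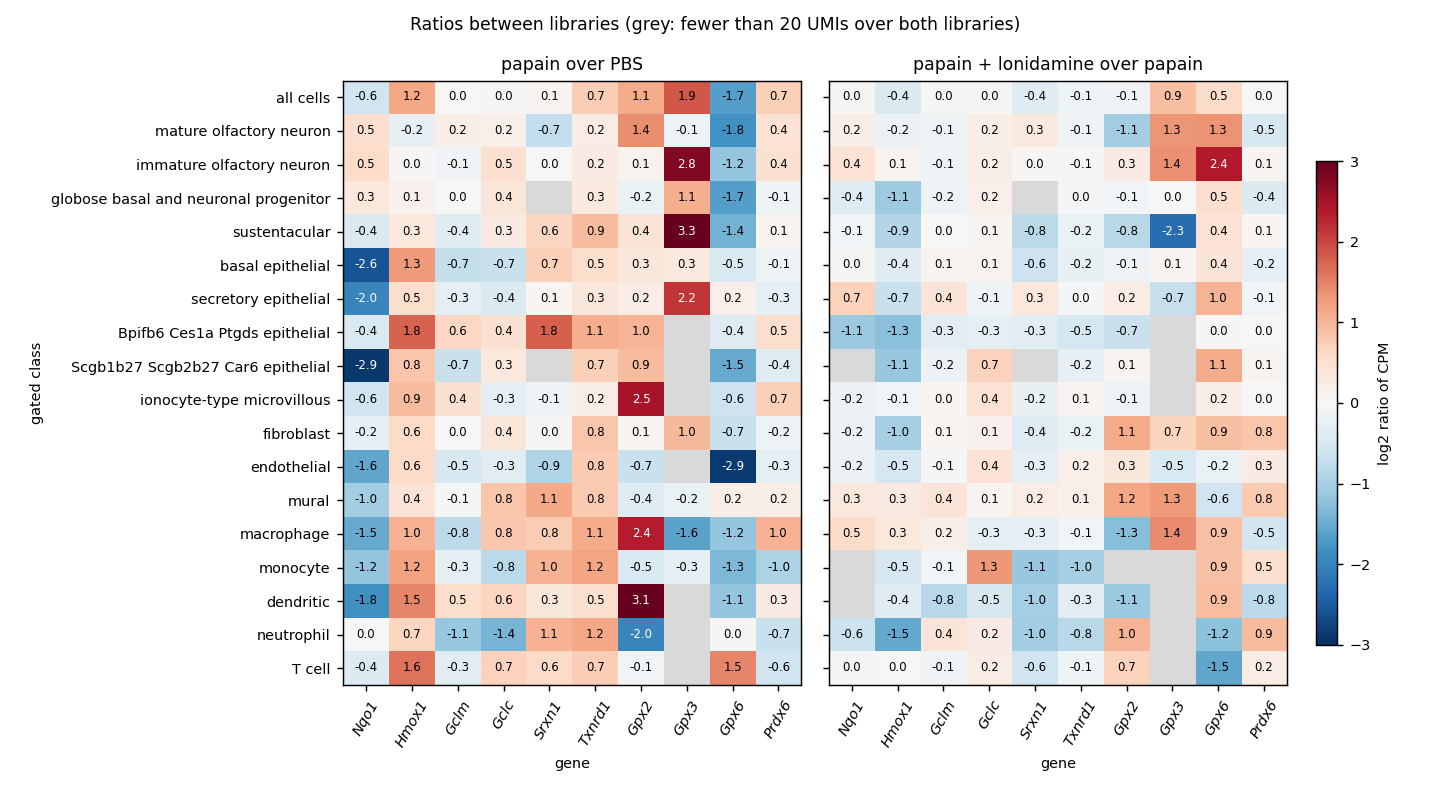
Log2 ratios of CPM for the 10 genes (columns) over all cells and in 17 classes (rows), for papain over PBS (left) and papain with lonidamine over papain (right); red is higher, blue lower, grey fewer than 20 UMIs over both libraries. Nqo1 is lower and Hmox1 higher in basal cells on the left (-2.59 and 1.29), and both are pale on the right.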

How the data were processed

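Single-cell 3′ libraries were made from collagenase and Dispase digests of nasal mucosa, 1 pooled library per group. The deposited UMI counts are whole numbers per gene and barcode. The file header names Cell Ranger 7.1.0, while the submitters' processing notes name Cell Ranger 2.1.1 and GRCm39. Cells needed 500 or more UMIs, 200 or more genes and no more than 20% of UMIs from mitochondrial genes, and Scrublet doublets (1.44% to 2.16%) were removed (Python 3.11.15, scanpy 1.11.5, numpy 2.4.6, scipy 1.17.1, matplotlib 3.10.9). Cell types come from gates on marker genes made here. A marker counted with at least 1 UMI and a level at or above its mean, and a cell joined the class with the highest share of markers counted (at least 50% and 2 markers), ties staying ungated.

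Counts were summed per library and class. Log2 ratios had 0.5 added to each count, needed at least 20 UMIs over both libraries and carry conditional binomial intervals. Sums have exact Poisson and shares Clopper-Pearson intervals. UMIs of pooled mice are not replicates. The log2 ratio, its interval and the 2-fold call were tested on simulated counts with known changes. The cell filters, gates, thinning, class weights and promoter search were not. The design gives no number of mice per pool.

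All 10 members are named. List genes are named where their level over all cells differed at least 2-fold with at least 50 UMIs, besides Nfe2l2, Keap1, Bach1, Gpx1, Gpx4 and the zone markers. Fth1, Prdx1, Txn1, Abcc1, Slc7a11 and Ephx1 are named for macrophages outside this rule. Members and lists were chosen with earlier results of these data known.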

Additional observations from a re-analysis of the deposited data

Results flagged for a closer look

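In each of the following pairs of classes the same comparison moved a gene past 2-fold in opposite directions, and the difference between the classes was not tested. For papain against PBS, the log2 ratio of Gpx2 was 3.10 in dendritic cells (5 and 49 UMIs) and -1.98 in neutrophils (64 and 28 UMIs). A single cell held 40.8% of the dendritic UMIs with papain and 42.2% of the neutrophil UMIs with PBS. Gpx3 was at 3.34 in sustentacular cells, where 1 papain cell held 86.2% of the UMIs and the ratio without the top cells was 0.72, and at -1.60 in macrophages. Gpx6 was at 1.47 in T cells, where 1 papain cell held 72.0% of the UMIs, and at -2.87 in endothelial cells, where 1 PBS cell held 85.8%.

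For lonidamine against papain, Gpx2 was at 1.17 in mural cells (48 and 98 UMIs) and at -1.27 in macrophages (92 and 33 UMIs). Gpx3 was at 1.42 in macrophages and at -2.29 in sustentacular cells, the latter -0.27 without the top cells. Gpx6 was at 2.39 in immature olfactory neurons (416 and 1717 UMIs, 35.2% of the latter in 1 cell) and at -1.55 in T cells.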

How the results depend on the processing

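Each group is 1 pool, and counting intervals do not cover differences between mice, dissections or digests. Depth, ribosomal RNA, the mix of classes and the share of female cells differed between the libraries and cannot be told apart from treatment. No paired analysis was possible because each group had 1 library.

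Over all cells, the 3 genes higher and 1 lower with papain became 0 and 0 with the same class weights, and the 1 lower became 2 in female cells. For lonidamine against papain, 0 higher became 1 in female cells. Within classes, the 14 lower for lonidamine became 7 without each gene's top cell, an alternative chosen after seeing the data. Genes whose share of cells with a UMI differed 2-fold for papain against PBS went from 0 (13.8% of all genes) to 1 with thinned cells. The Nqo1 share in Acsm4 neurons went from 80.2%, 87.4% and 87.7% to 58.9%, 75.7% and 74.6%.

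Of 861 alternatives to 76 called ratios, 844 had the same sign, 747 stayed past 2-fold and 17 turned, and the cause was not tested. Dropping the minimum count cannot change a ratio, and a changed gate cannot change a ratio over all cells. Part of the 844 and 747 was therefore fixed in advance. For papain against PBS, male cells gave 0.66 for Gpx6 in sustentacular cells and -0.81 for Hmox1 in monocytes. Gpx6 in T cells gave -0.33 with a marker counted at 1 UMI, -0.55 in female cells, -0.81 in male cells and -0.20 without the top cell. For lonidamine against papain, Gpx3 in mature neurons gave -0.61 with doublets kept and -0.43 with all barcodes, and in immature neurons -0.35 with a marker counted at 1 UMI. Gpx6 gave -0.28 in secretory cells with a stricter marker share, -0.13 in Scgb1b27 Scgb2b27 Car6 cells with a marker at 1 UMI, and 0.12 in male neutrophils. Gpx2 in male macrophages gave 1.53. Gpx6 in T cells gave 0.087 with a marker at 1 UMI, 0.60 in female cells, 0.81 in male cells and 0.0066 without the top cell.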
